A study of Bos taurus with 22 samples.

Results

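The genes described here are 10 carriers that move the products of protein digestion across the small intestinal enterocyte, chosen by name from 27570 annotated genes for their known place in peptide and amino acid absorption by a rule that uses no measured value, though with earlier results of these data known. All 10 were found in the count table, 6 of them carriers of the apical membrane and 4 carriers or carrier subunits of the basolateral membrane. Their mRNA was measured by RNA sequencing of mucosa scraped from the jejunum of 22 Holstein steers, reported in the study to be 10 to 12 months of age. Every steer, controls included, received a continuous abomasal infusion of raw corn starch at 3.94 g/kg of body weight daily for 7 d. Control steers (n = 5) received water with the starch and injections of bovine serum albumin (BSA), the vehicle. GLP-2 steers (n = 5) received water and glucagon-like peptide 2 (GLP-2) injected subcutaneously at 100 µg/kg of body weight daily, casein steers (n = 6) received casein at 1.30 g/kg of body weight daily and BSA, and casein + GLP-2 steers (n = 6) received both. The main effects therefore compared 11 GLP-2-injected with 11 BSA-injected steers and 12 casein-infused with 10 water-infused steers. Replicate numbers are the blocks of body weight to which steers were assigned.

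Dietary protein reaches the enterocyte as di- and tripeptides and as free amino acids. On the luminal side, peptides enter through the proton-coupled carrier PepT1, and amino acids enter through sodium-coupled, proton-coupled and exchange carriers with overlapping substrates. On the blood side, heteromeric exchangers and uniporters release amino acids to the portal circulation. Several of these carriers are pairs of a catalytic light chain and a glycoprotein heavy chain that brings it to the membrane. GLP-2 is a hormone of intestinal L cells that stimulates growth of the mucosa, and casein infused past the rumen supplies the peptides and amino acids that these carriers take up.

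The apical members were SLC15A1 (PepT1), SLC6A19 (the sodium-dependent carrier of neutral amino acids), SLC7A9 (the light chain of the exchanger of cystine and cationic amino acids), SLC3A1 (its heavy chain), SLC1A1 (the carrier of glutamate and aspartate) and SLC36A1 (a proton-coupled carrier of small amino acids such as glycine and proline). The basolateral members were SLC7A7 (the light chain that exports cationic amino acids), SLC3A2 (its heavy chain, also used by SLC7A8), SLC7A8 (an exchanger of neutral amino acids) and SLC43A2 (a uniporter of branched-chain and other large neutral amino acids). On the ARS-UCD1.2 assembly, SLC15A1 (ENSBTAG00000004440) spanned chr12:75634639-75662955 on the minus strand and SLC3A1 (ENSBTAG00000017421) spanned chr11:26701406-26735016 on the plus strand. SLC7A9 (ENSBTAG00000013338) lay on the minus strand of chr18:43263397-43296804 and SLC36A1 (ENSBTAG00000016094) on the plus strand of chr7:62635851-62681653. SLC7A8 (chr10:21683779-21737239) and SLC7A7 (chr10:21990496-22026915) were neighbours on the plus strand, 253257 bases apart. SLC3A1 overlapped PREPL (31.1 CPM on average, counts scaled to library size) and SLC7A7 overlapped OXA1L (108 CPM), each on the opposite strand. Libraries were strand-specific, but the strand setting used for counting was not given in the sources used here, so part of the SLC3A1 and SLC7A7 counts may come from these partners.

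Counts assigned to genes ranged from 8809666 to 28447810 per steer, with a median of 12028560.5. The scraped mucosa carried the enterocyte markers VIL1 (358 to 4469 CPM) and FABP2 (461 to 31790 CPM) in every steer, but the amount of villus and of lymphoid RNA differed between injections. The summed level of 16 villus enterocyte genes ranged from 2602 to 79200 CPM in BSA-injected steers and from 20830 to 126200 CPM in GLP-2-injected steers. The summed level of 10 B cell follicle genes, CR2 and MS4A1 among them, ranged from 19.4 to 2043 CPM and from 15.2 to 58.6 CPM, respectively, with a control steer as low as the GLP-2-injected steers. In tissue of this kind, fewer cells of a type and less RNA per cell cannot be told apart. GLP-2 replicate 3 was the deepest library and held the highest value of 8 of the 10 carriers. It is left out as a check beside the log2 fold changes of the carriers, a check added after the values were seen. Levels, spans between steers, ranges of ratios and correlations are given with this steer included.

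Per length of transcript, SLC15A1 was the most abundant of the 10, at 100.8 ± 117.6 FPKM (a level scaled to transcript length and library size; mean ± SD, n = 22). SLC3A2 followed at 55.0 ± 57.1 FPKM, SLC43A2 at 45.7 ± 28.0 FPKM, SLC7A7 at 39.3 ± 27.8 FPKM and SLC3A1 at 38.7 ± 24.6 FPKM. SLC6A19 averaged 31.8 ± 61.5 FPKM, SLC7A8 23.8 ± 38.4 FPKM and SLC1A1 18.6 ± 17.4 FPKM, and the lowest means were those of SLC7A9 at 6.47 ± 15.1 FPKM and SLC36A1 at 4.43 ± 3.18 FPKM. Neighbours in this order were compared within steers by a permutation test of sign-flipped log2(FPKM + 0.1) differences, two-sided and adjusted over the 9 pairs. SLC15A1 exceeded SLC3A2 in 18 of 22 steers (difference 0.57, adjusted p = 0.022), SLC3A1 exceeded SLC6A19 in 17 of 22 (1.47, adjusted p = 0.0072) and SLC1A1 exceeded SLC7A9 in 22 of 22 (2.65, adjusted p = 0.00018). The other 6 neighbouring pairs did not differ beyond their spread (adjusted p from 0.16 to 0.91). Carriers also differed in their spread between steers. From the lowest to the highest steer, SLC7A9 spanned 487-fold, SLC6A19 300-fold (299.8), SLC7A8 85.3-fold and SLC15A1 36.8-fold. By contrast, SLC3A2 spanned 14.9-fold, SLC7A7 12.6-fold and SLC43A2 9.503-fold. In each of these spans the highest steer was GLP-2 replicate 3, at 202.9 CPM for SLC7A9 and 1012 CPM for SLC6A19. The next highest, GLP-2 replicate 6, measured 50.3 and 286.5 CPM, respectively.

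**Figure D1:**
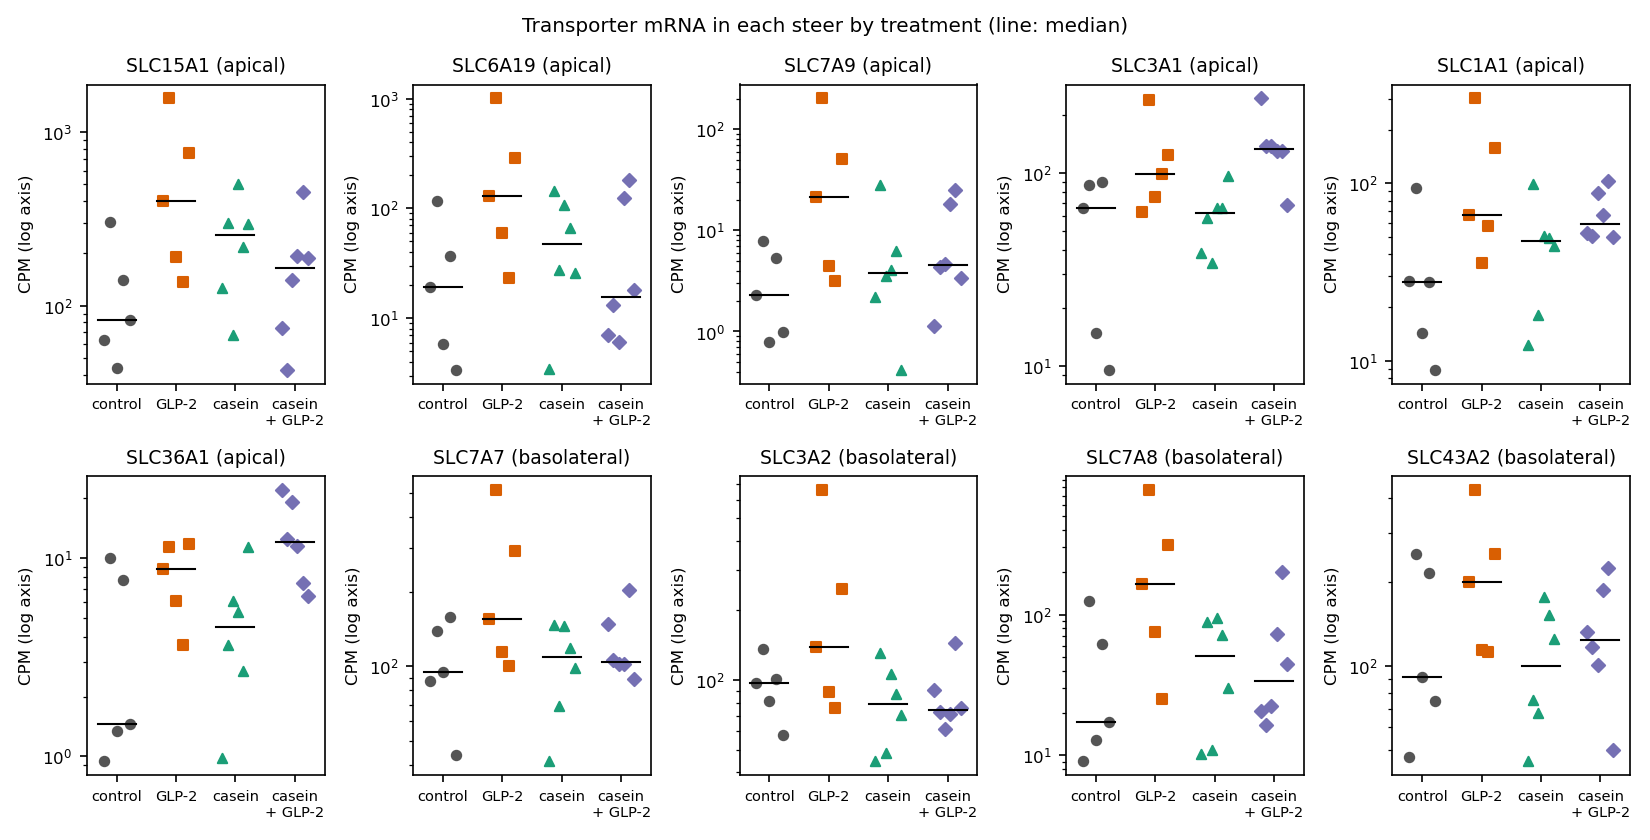
CPM on a log axis for each of the 10 carriers in each of the 22 steers, by treatment, with a line at the median of each treatment. GLP-2 steers hold the highest medians of 8 carriers, whereas SLC3A1 and SLC36A1 have their highest medians with casein + GLP-2 (133.9 and 11.99 CPM).

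Of the 10 carriers, 3 rose with GLP-2, SLC3A1, SLC7A9 and SLC36A1, all of them apical (edgeR quasi-likelihood test, Benjamini-Hochberg adjusted p at most 0.05). Of all 13928 genes tested, 715 (5.13%) rose with GLP-2 and 1166 (8.37%) fell. None of the 4 basolateral carriers passed, and SLC1A1 (adjusted p = 0.0516), SLC7A8 (adjusted p = 0.0741) and SLC7A7 (adjusted p = 0.0848) tended to be higher. The fold change was positive for all 10, with a median log2 value of 1.23 for the apical and 0.81 for the basolateral carriers, beside 0.0079 over all genes. At an unadjusted p of at most 0.05, 8 of the 10 were higher, beside 16.5% of all genes. Without GLP-2 replicate 3, SLC3A1, SLC36A1 and SLC1A1 reached that unadjusted level and SLC3A1 alone passed the adjusted test. Without control replicate 2, SLC1A1 (adjusted p = 0.019) and SLC7A8 (adjusted p = 0.0379) passed as well as the 3 above. The shares of all genes in these left-out fits are not given here, so the added and lost calls are not read as particular to the carriers. With the block as a term, 1 carrier passed, again SLC3A1 (log2 fold change 1.30, adjusted p = 0.0492).

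SLC3A1, the heavy chain of the cystine and cationic amino acid exchanger, gave the clearest response. In GLP-2 steers it measured 63.3, 239.5, 75.1, 99.3 and 124.1 CPM, and in casein + GLP-2 steers 244.2, 137.6, 137.5, 129.4, 130.4 and 68.7 CPM. In control steers it measured 65.6, 86.9, 15.0, 90.4 and 9.59 CPM, and in casein steers 38.4, 58.8, 34.4, 65.8, 65.7 and 96.3 CPM. Thus 10 of 11 GLP-2-injected steers lay above the median of the BSA-injected steers and 8 of 11 lay above the highest of them, although the ranges overlapped. The means were 131.7 ± 61.1 and 57.0 ± 29.4 CPM (SD, n = 11 each). The log2 fold change was 1.22 (SE 0.323, adjusted p = 0.0243). The call was kept when each of the 22 steers was left out in turn (log2 fold change 1.07 to 1.32).

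SLC7A9, the light chain that pairs with SLC3A1, had the largest fold change of the 10 and the widest spread. It measured 21.5, 202.9, 4.46, 3.15 and 50.3 CPM in GLP-2 steers and 1.14, 4.38, 4.62, 18.2, 25.2 and 3.38 CPM in casein + GLP-2 steers. Control steers ranged from 0.787 to 7.90 CPM and casein steers from 0.417 to 28.0 CPM, so that the high values belonged to GLP-2 replicates 3 and 6 and most other steers overlapped. The log2 fold change with GLP-2 was 2.49 (SE 0.808, adjusted p = 0.0443). It was 1.29 (adjusted p = 0.192) without GLP-2 replicate 3 and 2.54 (adjusted p = 0.0804) with the block, and 8 of 11 GLP-2-injected steers lay above the BSA median. The call was kept in 8 of the 22 fits that left out 1 steer.

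SLC36A1, the proton-coupled carrier of small amino acids, had the lowest mean FPKM of the 10, although its median (3.89 FPKM) was above that of SLC7A9 (1.57 FPKM), and rose with GLP-2. It measured 8.83, 11.4, 6.05, 3.63 and 11.7 CPM in GLP-2 steers and 22.1, 12.5, 19.0, 11.5, 7.47 and 6.42 CPM in casein + GLP-2 steers. Control steers measured 0.941, 9.94, 1.34, 7.69 and 1.46 CPM, and casein steers 0.981, 3.65, 6.05, 5.34, 2.69 and 11.4 CPM. Here 10 of 11 GLP-2-injected steers lay above the BSA median, and the control steers fell into a pair near 8 to 10 CPM and 3 steers below 2 CPM. The log2 fold change was 1.24 (SE 0.417, adjusted p = 0.0499), at the edge of the threshold, 1.42 (adjusted p = 0.0526) with the block and 1.21 (adjusted p = 0.0756) without GLP-2 replicate 3. The call was kept in 5 of the 22 fits that left out 1 steer.

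SLC1A1, the carrier of glutamate and aspartate, amino acids that enterocytes use as fuel, tended to be higher with GLP-2. It measured 66.4, 301.7, 35.5, 57.8 and 157.8 CPM in GLP-2 steers and 49.8 to 103 CPM in casein + GLP-2 steers. Control steers measured 28.1, 94.6, 14.3, 27.9 and 8.90 CPM, and casein steers 12.3 to 98.6 CPM. All 11 GLP-2-injected steers lay above the BSA median, which held for no other carrier. The log2 fold change was 1.22 (SE 0.416, adjusted p = 0.0516), and DESeq2 called it (adjusted p = 0.0198), as did 5 of the 22 fits that left out 1 steer. Without GLP-2 replicate 3 it was 0.84 (adjusted p = 0.134).

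The carriers that start uptake of most digested protein, SLC15A1 for peptides and SLC6A19 for neutral amino acids, did not pass the test. SLC15A1 measured 399.4, 1569, 191.6, 137.6 and 755 CPM in GLP-2 steers but 74.2, 42.6, 140.8, 192.7, 452.7 and 188.9 CPM in casein + GLP-2 steers. Control steers measured 63.6, 301.2, 43.9, 141.3 and 82.6 CPM, and casein steers 125.8, 297.2, 67.3, 502.3, 216.6 and 295.9 CPM. The 2 highest steers were GLP-2 replicates 3 and 6, and with casein the injected steers lay below the casein median in 5 of 6 cases. The pooled log2 fold change was 0.97 (SE 0.522, adjusted p = 0.188), and 0.42 (adjusted p = 0.552) without GLP-2 replicate 3.

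SLC6A19 likewise had its highest median in GLP-2 steers. It measured 131.1, 1012, 59.5, 23.4 and 286.5 CPM in GLP-2 steers and 6.96, 13.1, 6.02, 124.4, 179.7 and 18.03 CPM in casein + GLP-2 steers. Control steers ranged from 3.38 to 116.1 CPM with a median of 19.2 CPM, and casein steers from 3.43 to 143.8 CPM with a median of 47.0 CPM. Only 6 of 11 GLP-2-injected steers lay above the BSA median, and the log2 fold change was 1.76 (SE 0.807, adjusted p = 0.125). It was 0.76 (adjusted p = 0.474) without GLP-2 replicate 3.

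Among the basolateral carriers, SLC7A8 had the largest fold change. It measured 165.4, 772, 74.9, 25.3 and 314.2 CPM in GLP-2 steers, a median of 17.1 CPM (9.05 to 125.1) in control steers, 50.6 CPM (10.1 to 94.3) in casein steers and 33.6 CPM (16.5 to 201.1) in casein + GLP-2 steers. The log2 fold change with GLP-2 was 1.72 (SE 0.656, adjusted p = 0.0741), and 1.002 (adjusted p = 0.241) without GLP-2 replicate 3. SLC3A2, the heavy chain shared by both basolateral light chains, measured 139.4, 664.6, 88.6, 75.9 and 246.3 CPM in GLP-2 steers. It kept within 58.1 to 135.6 CPM in control, 44.6 to 131.1 CPM in casein and 61.8 to 145.2 CPM in casein + GLP-2 steers, so that 3 GLP-2 steers stood above all controls. Its log2 fold change was 0.86 (SE 0.365, adjusted p = 0.102), and 0.29 (adjusted p = 0.421) without GLP-2 replicate 3.

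SLC7A7 was higher than the BSA median in 10 of 11 GLP-2-injected steers, with means of 175.3 ± 128.4 and 104.0 ± 41.5 CPM (SD, n = 11 each). Its log2 fold change was 0.76 (SE 0.304, adjusted p = 0.0848), and 0.44 (adjusted p = 0.228) without GLP-2 replicate 3. SLC43A2, the uniporter, likewise lay above the BSA median in 10 of 11 steers, at 174.6 ± 104.4 against 120.3 ± 70.4 CPM, a log2 fold change of 0.54 (SE 0.332, adjusted p = 0.245), which was 0.31 (adjusted p = 0.502) without GLP-2 replicate 3. Control replicates 2 and 4, at 253.5 and 215.1 CPM, were as high in SLC43A2 as most GLP-2-injected steers.

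The question of whether GLP-2 acted alike with and without casein was put to the 4 treatments in a fit over 15086 genes, in which no gene passed the adjusted threshold in any of the pairwise comparisons or in the interaction (0%). Values at an unadjusted p of at most 0.05 are therefore given as a description. Without casein, GLP-2 steers were higher than control steers in 8 of the 10 carriers, beside 5.59% of all genes. The log2 fold change was 4.02 for SLC7A9 (adjusted p = 0.174), 3.05 for SLC6A19 (0.271), 2.58 for SLC7A8 (0.246), 2.27 for SLC15A1 (0.194), 1.84 for SLC1A1 (0.223), 1.36 for SLC3A2 (0.218), 1.18 for SLC3A1 (0.288) and 1.18 for SLC7A7 (0.24). SLC36A1 (0.98) and SLC43A2 (0.71) did not reach that level. DESeq2 called SLC15A1 (adjusted p = 0.0281) and SLC7A9 (adjusted p = 0.0155) and none of the other carriers. Without GLP-2 replicate 3, only SLC15A1 (1.57) and SLC7A9 (2.55) were higher at the unadjusted level. Without control replicate 2, edgeR called SLC15A1 (2.87, adjusted p = 0.0416) and SLC1A1 (2.64, adjusted p = 0.0365). The shares of all genes in these alternative fits are not given here, so these calls are not read as particular to the carriers.

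With casein, 2 of the 10 were higher in injected steers, SLC3A1 (log2 fold change 1.20, SE 0.444, adjusted p = 0.138) and SLC36A1 (1.37, SE 0.568, adjusted p = 0.162), beside 9.88% of all genes. The other 8 lay between -0.47 (SLC15A1) and 0.58 (SLC1A1). DESeq2 called none of the 10 there.

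The difference between these responses was tested by the interaction of casein and GLP-2. It was below 0 at the unadjusted level for 4 of the 10 carriers, beside 2.59% of all genes: SLC15A1 (-2.73, SE 0.921), SLC7A9 (-3.65, SE 1.43), SLC3A2 (-1.30, SE 0.601) and SLC6A19 (-3.15, SE 1.51). Each had an adjusted p of 0.996. For SLC3A1 the interaction was 0.02 (SE 0.651) and for SLC36A1 0.39 (SE 0.831), and the size of these errors leaves differences of more than 1 log2 unit undetectable at this number of steers. Without GLP-2 replicate 3, SLC15A1 alone remained below 0 at that level (-2.02, adjusted p = 0.938), while SLC7A9 was -2.16, SLC6A19 -1.90, SLC3A2 -0.46 and SLC3A1 0.49. Without control replicate 2, the interaction was -3.34 for SLC15A1, -4.31 for SLC6A19, -4.20 for SLC7A9 and -3.11 for SLC7A8, each with an adjusted p of 1. DESeq2 called none of the 10.

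**Figure D2:**
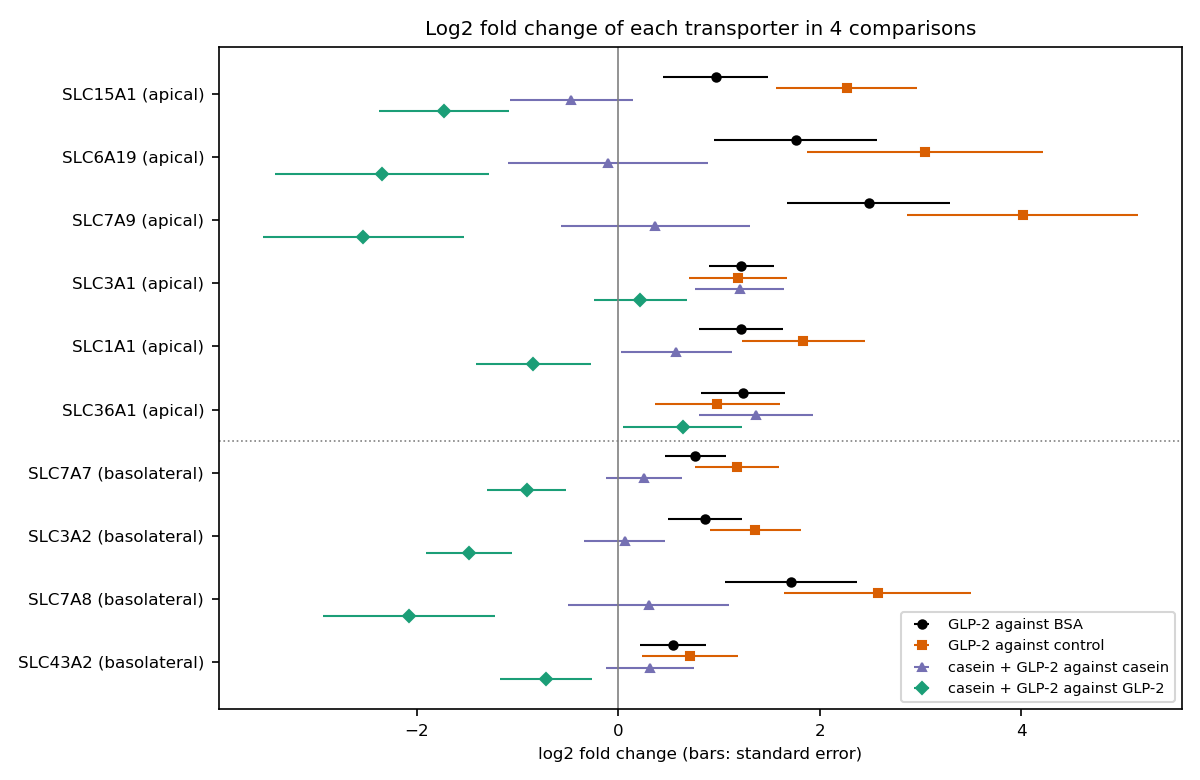
Log2 fold change with its standard error for each carrier (rows, apical above the dotted line) in 4 comparisons, which share steers with each other. For SLC15A1, SLC6A19 and SLC7A9 the value with water (2.27, 3.05 and 4.02) lies far to the right of that with casein (-0.47, -0.10 and 0.37), whereas for SLC3A1 the values lie close together (1.18 and 1.20), though less so without GLP-2 replicate 3 (0.78 and 1.27).

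Casein infusion changed none of the 10 carriers by the adjusted test, and none of 14096 genes (0%). DESeq2 called 5 genes, none of them a carrier. At the unadjusted level, 3 of the 10 were lower with casein, beside 1.84% of all genes: SLC3A2 (log2 fold change -0.998, SE 0.343), SLC7A8 (-1.46, SE 0.666) and SLC7A9 (-1.81, SE 0.839), each with an adjusted p of 0.994. Without GLP-2 replicate 3 these were -0.44, -0.66 and -0.35, and none of the 10 reached the unadjusted level. SLC3A1 (0.22) and SLC36A1 (0.54) had positive values with casein and the other 8 negative ones.

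Casein was also compared under each injection. In BSA-injected steers, casein against control gave no carrier at the unadjusted level, beside 5.66% of all genes, and the values ran from -0.33 for SLC43A2 to 1.12 for SLC7A9, with 1.01 for SLC15A1. In GLP-2-injected steers, casein + GLP-2 against GLP-2 was below 0 at the unadjusted level for 6 of the 10, beside 1.79% of all genes. The values were -1.73 for SLC15A1, -2.35 for SLC6A19, -2.54 for SLC7A9, -0.91 for SLC7A7, -1.49 for SLC3A2 and -2.08 for SLC7A8. None of the 10 reached that level without GLP-2 replicate 3, when SLC15A1 was -1.05 and SLC3A2 -0.69, and every adjusted p was 0.995 with all steers. DESeq2 called no carrier in either comparison.

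Because light and heavy chains work as pairs, their FPKM ratio was compared within each steer as a log2 difference of FPKM + 0.1, by a two-sided permutation test with p adjusted over the 6 tests. SLC7A9 lay below SLC3A1 in all 22 steers. The log2 ratio ranged from -4.87 to -3.16 in control steers, from -5.07 to -0.45 in GLP-2 steers, from -7.32 to -1.27 in casein steers and from -7.63 to -2.57 in casein + GLP-2 steers. It did not differ between GLP-2 and BSA (difference 0.27, adjusted p = 0.87) or between casein and water (-1.01, adjusted p = 0.363) beyond the spread between steers. The lowest value belonged to casein + GLP-2 replicate 1, which had the highest SLC3A1 of all steers (244.2 CPM) and an SLC7A9 of 1.14 CPM.

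SLC7A7 and SLC3A2 kept to a much narrower ratio, from -1.07 to 0.05 over all steers. The ratio was -0.25 ± 0.232 with casein (n = 12) and -0.56 ± 0.337 with water (n = 10), a difference of 0.31 (permutation p = 0.0175, adjusted p = 0.105). With all steers the ratio did not pass. Leaving out control replicate 4 took the adjusted permutation p to 0.0259 and leaving out casein replicate 1 took it to 0.0263, omissions that gained a call. The lowest ratios, in control replicate 5 (-1.07) and GLP-2 replicate 3 (-1.04), were both with water, so that leaving out either makes the difference smaller. SLC7A8 to SLC3A2 ranged from -4.31 to -0.49 and was higher by 0.74 with GLP-2 (adjusted p = 0.349) and differed by -0.08 with casein (adjusted p = 0.874).

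**Figure D3:**
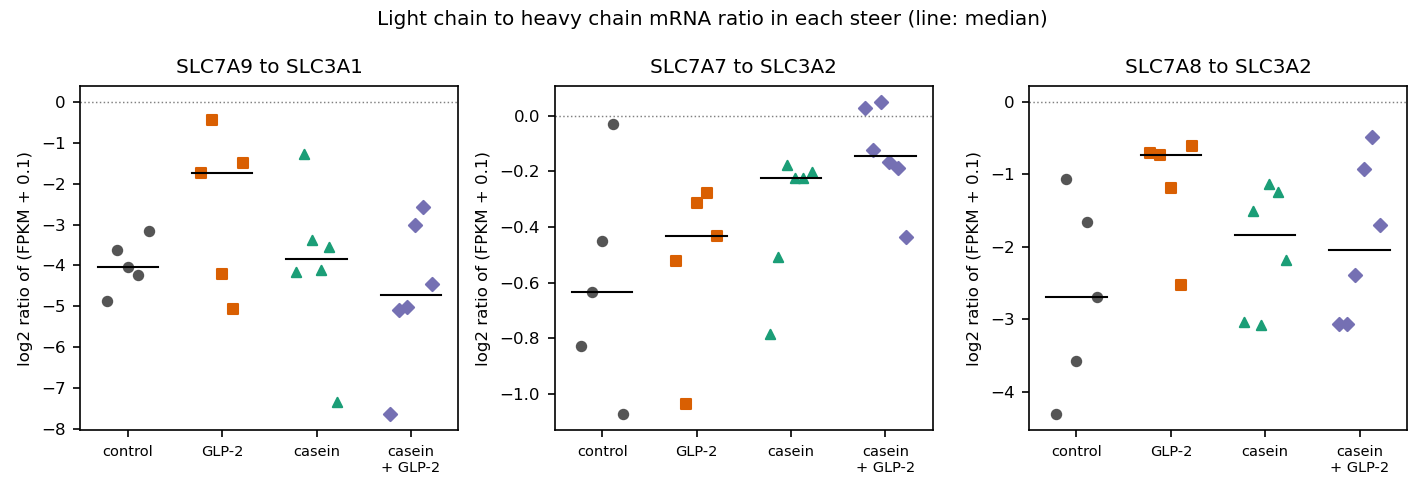
Log2 ratio of light chain to heavy chain FPKM (each FPKM + 0.1) in each steer by treatment, with a line at the median and a dotted line at equal FPKM. SLC7A9 lies below SLC3A1 in every steer, from -7.63 to -0.45, whereas SLC7A7 keeps within -1.07 to 0.05 of SLC3A2.

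With treatment means removed, the carriers varied together between steers, though not equally. The values that follow are Pearson correlations of log2 CPM residuals over 22 steers, given as a description, since the steers share differences in tissue makeup and depth. The 15 apical pairs ranged from 0.192 to 0.832 (median 0.591), the 6 basolateral pairs from 0.662 to 0.926 (median 0.802) and the 24 pairs across the cell from 0.358 to 0.925 (median 0.698). The closest pairs were SLC7A7 with its heavy chain SLC3A2 (0.926), and SLC15A1 with SLC7A8 (0.925), an apical peptide carrier with a basolateral exchanger. SLC6A19 and SLC7A9 correlated at 0.832. SLC7A9 and its heavy chain SLC3A1 correlated at 0.341, and SLC7A9 and SLC36A1 at 0.192, the lowest of all pairs.

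**Figure D4:**
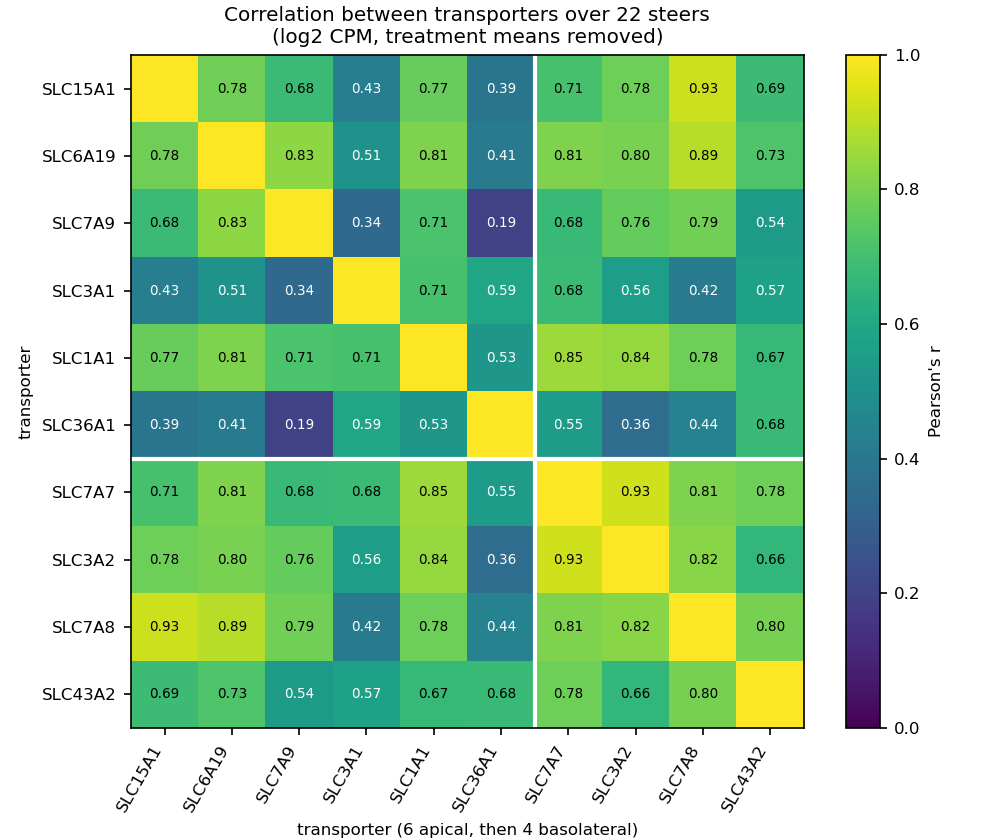
Pearson correlation between carriers over 22 steers, on log2 CPM with treatment means removed, with white lines between the 6 apical and 4 basolateral carriers. SLC36A1 ranges from 0.192 to 0.676 and SLC3A1 from 0.341 to 0.709, whereas SLC15A1, SLC6A19, SLC7A9, SLC1A1 and the basolateral carriers correlate at 0.544 or more with each other.

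By the same measure, among 13236 genes, the profiles most like that of SLC15A1 were those of MAOA (0.905), EPB41L3 (0.881), MME (0.874), ENPEP (0.825) and ANPEP (0.814). MME, ENPEP and ANPEP encode membrane peptidases that cut peptides at the cell surface, and MAOA encodes a monoamine oxidase. ANPEP, aminopeptidase N, was also the gene most like SLC6A19 (0.913) and SLC7A8 (0.918). Both ANPEP and MME belong to the villus enterocyte genes summed above, so these likenesses share data with the villus score used below. The gene most like SLC7A9 was SLC5A11 (0.906), which encodes a sodium-coupled inositol transporter, and that most like SLC3A2 was RARS (0.888), the arginyl-tRNA synthetase. SLC1A1 was nearest to VNN1 (0.915), SLC7A7 to ENPP7 (0.911) and SLC43A2 to SFXN1 (0.876). SLC3A1 was nearest to RNFT1 (0.97) and SLC36A1 to ITPR2 (0.957).

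The level of villus RNA moved with several of these results. The villus enterocyte score, the mean log2 CPM of the 16 villus genes, averaged 8.94 ± 1.64 in control, 10.2 ± 0.796 in GLP-2, 8.94 ± 1.23 in casein and 10.4 ± 0.581 in casein + GLP-2 steers. Correlations with the score over the 22 steers were taken with treatment means removed, with p by permutation within treatments. Adjusted p, over 10 carriers, belongs to Pearson's r alone. The score correlated most with SLC3A1 (Pearson's r = 0.86, Spearman's rho = 0.879, adjusted permutation p = 0.0001). For both, the unadjusted permutation p was 1e-05, the smallest that the resampling can give. Next came SLC1A1 (r = 0.781, rho = 0.752, adjusted permutation p = 0.0015), SLC7A7 (r = 0.751, rho = 0.704, adjusted permutation p = 0.00095) and SLC36A1 (r = 0.748, rho = 0.703, adjusted permutation p = 0.0032). Lower values were found for SLC43A2 (r = 0.668, rho = 0.652), SLC3A2 (r = 0.578, rho = 0.647), SLC7A8 (r = 0.522, rho = 0.52), SLC6A19 (r = 0.52, rho = 0.424) and SLC15A1 (r = 0.504, rho = 0.542). The adjusted permutation p of r was from 0.0032 to 0.025 for these. The unadjusted permutation p of rho was 0.063 for SLC6A19. SLC7A9 gave r = 0.263 and rho = 0.261 (permutation p = 0.24 and 0.26).

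Without the 2 steers farthest from the median score, control replicate 5 and casein replicate 1, r was 0.829 for SLC3A1, 0.693 for SLC1A1, 0.625 for SLC7A7 and 0.701 for SLC36A1. It was 0.635 for SLC43A2, 0.511 for SLC3A2, 0.487 for SLC7A8 and 0.547 for SLC15A1. For SLC6A19 it was 0.322 (permutation p = 0.16), and the difference from its r over all steers was not tested. Villus score was high in casein + GLP-2 replicates 1, 2 and 3 (11.3, 10.5 and 10.9). In these steers SLC15A1 measured 74.2, 42.6 and 140.8 CPM and SLC3A1 measured 244.2, 137.6 and 137.5 CPM. The score was also high in GLP-2 replicates 3 and 6 (11.11 and 10.96) and in control replicate 2 (10.84). There SLC15A1 measured 1569, 755 and 301.2 CPM and SLC3A1 measured 239.5, 124.1 and 86.92 CPM, so that SLC15A1 differed widely at high scores.

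With the villus score as a covariate, an alternative chosen after seeing the data, no gene passed the adjusted test of GLP-2 against BSA (edgeR, 636 of 13928 genes at an unadjusted p of at most 0.05, none of them a carrier). SLC3A1 then had a log2 fold change of 0.42 (SE 0.240, adjusted p = 0.967), SLC7A9 1.01 (SE 1.08, adjusted p = 0.968) and SLC36A1 0.44 (SE 0.372, adjusted p = 0.967). The B cell follicle score as a covariate likewise left no gene past the test, with SLC3A1 at 0.61 (adjusted p = 0.999). Since both scores differed with the injection, their part in the response to GLP-2 was not tested by these fits.

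**Figure D5:**
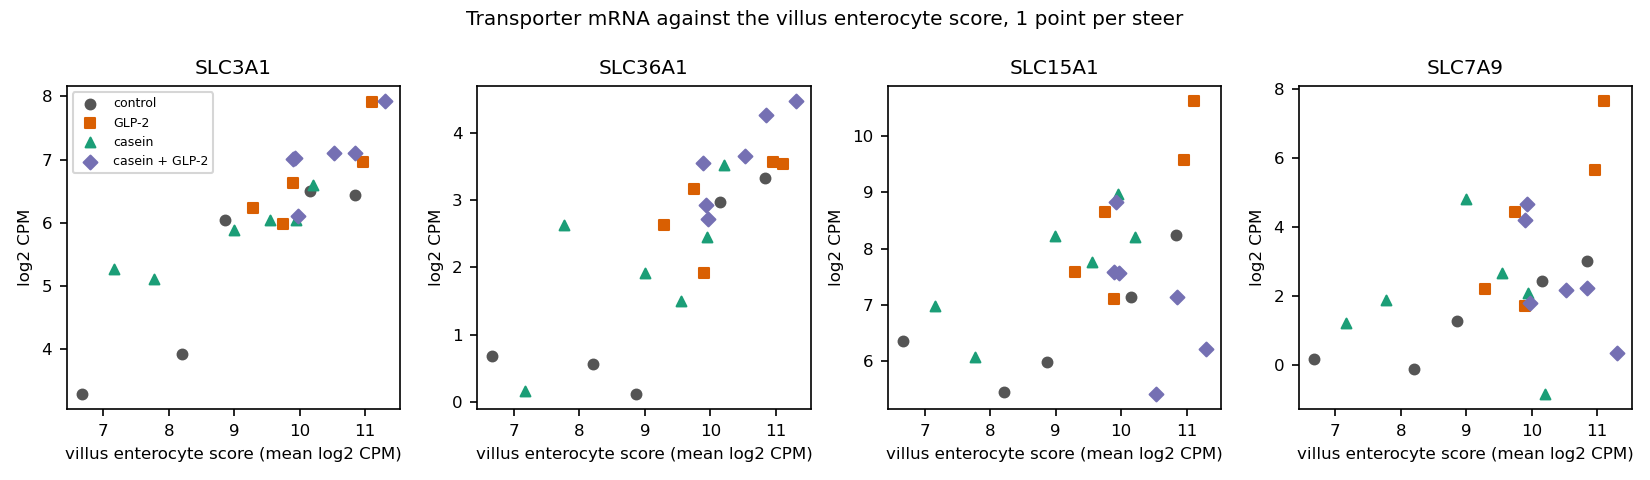
Log2 CPM of 4 carriers against the villus enterocyte score (mean log2 CPM of 16 genes), 1 point per steer and colours by treatment. SLC3A1 and SLC36A1 rise along the score. Their r of 0.86 and 0.748 was computed with treatment means removed, which the points shown still hold. At scores above 10, SLC15A1 and SLC7A9 are spread over several log2 units, with casein + GLP-2 replicate 1 among the lowest.

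Among 30 other carriers of amino acids and peptides, 22 were tested with GLP-2 against BSA, of which 2 rose and 2 fell, beside 5.13% and 8.37% of all genes. SLC38A2, a sodium-coupled carrier of small neutral amino acids and the most abundant of the list (34.9 FPKM), rose from 142.8 ± 30.1 to 193.3 ± 30.5 CPM (log2 fold change 0.44, adjusted p = 0.0311). SLC6A6, the taurine transporter, rose from 67.6 ± 40.7 to 132.8 ± 44.8 CPM (0.99, adjusted p = 0.0332). SLC1A5, a glutamine carrier of growing cells, fell from 27.8 ± 15.7 to 14.2 ± 4.97 CPM (-0.97, adjusted p = 0.0347), and SLC15A4, a peptide and histidine carrier of lysosomes, fell by 0.42 (adjusted p = 0.0401). The median over the 22 was -0.02, beside 1.22 over the 10 carriers, and SLC6A20 (33.2 FPKM; 0.94, adjusted p = 0.106) and SLC15A3 (18.2 FPKM; -0.24, adjusted p = 0.459) did not pass. Symbol SLC15A2 was not matched in the table.

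Apical carriers depend on partner proteins and on ion gradients kept by the sodium pump and the sodium-proton exchangers. Of the 9 such genes tested, none passed, although all 9 fold changes were positive (median 0.93) and 7 of 9 were higher at the unadjusted level, beside 16.5% of all genes. The sodium pump subunits ATP1B3 (700.9 FPKM; 0.54, adjusted p = 0.188) and ATP1B1 (240.3 FPKM; 0.81, adjusted p = 0.0814) were among the most abundant.

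Of 12 intestinal transcription factors tested, 4 rose with GLP-2, beside 5.13% of all genes, among them GATA6 (0.83, adjusted p = 0.0257), HNF4A (0.80, adjusted p = 0.0346) and HNF4G (0.93, adjusted p = 0.0454). HNF4A is known as an activator of enterocyte genes. HNF4G was the most abundant (179.0 FPKM), followed by CDX2 (94.0 FPKM; 0.38, adjusted p = 0.143) and GATA4 (55.8 FPKM; 0.56, adjusted p = 0.0728), neither of which passed.

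SLC3A2 is also a target of ATF4, the transcription factor of the amino acid response, and its level was read beside 11 tested genes of that response. Of these 11, 2 fell with GLP-2, beside 8.37% of all genes: PHGDH and PSAT1, enzymes of serine synthesis. PHGDH fell from 56.8 ± 57.7 to 13.3 ± 9.01 CPM (-2.10, adjusted p = 0.0236) and PSAT1 from 33.9 ± 31.8 to 9.86 ± 4.26 CPM (-1.79, adjusted p = 0.0226). The other 9 did not pass, including ATF4 itself (209.6 FPKM; -0.13, adjusted p = 0.422), DDIT4 (-0.42, adjusted p = 0.229) and DDIT3 (0.14, adjusted p = 0.597). SLC3A2 had a positive value in the same comparison. With casein, no gene of these 4 lists passed the adjusted test or an unadjusted p of at most 0.05, and PHGDH had the lowest value (-1.15, adjusted p = 0.994).

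Of the marker lists of cell types, 2 of 16 villus enterocyte genes rose with GLP-2 (median 0.94) and 3 of 9 epithelium genes rose (median 0.32). Of 6 macrophage genes, 1 rose. The share of all genes that rose was 5.13%. All 9 tested B cell follicle genes fell (median -4.46), as did 4 of 8 crypt proliferation genes (median -0.85). So did 2 of 5 plasma cell genes and 1 of 6 T cell genes. The share of all genes that fell was 8.37%. None of 4 goblet cell or 6 smooth muscle genes passed, and FABP6, the ileal bile acid binding protein, fell by 4.43. None of these genes passed with casein.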

How the data were processed

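Jejunal mucosa of 22 steers was sequenced after poly-A selection and strand-specific library preparation. The authors cleaned reads with fastp, aligned them to ARS-UCD1.2 with HISAT2 (version 2.0.5), assembled them with StringTie (version 1.3.3b) and counted them with featureCounts (version 1.5.0-p3), per the submitters' processing notes and methods. They deposited whole-number counts per gene and FPKM values, which equal counts divided by gene length and by a constant of each steer. A GLP-2 steer of block 2 and a control steer of block 6 were not analysed here. The paper reports that a control steer was not sequenced because of low RNA integrity. Its main effects kept every GLP-2 steer, so they include a GLP-2 steer that is missing here. RNA integrity varied between steers in the paper, and its part in the levels and ratios was not tested. Depth ranged from 8809666 to 28447810 counts per steer. Each library is a separate steer.

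Counts were tested with edgeR (version 4.0.16; TMM, filterByExpr with a minimum count of 10, quasi-likelihood F test) in R 4.3.3, over all genes kept, with Benjamini-Hochberg adjustment; adjusted p at most 0.05 was a call and at most 0.1 a tendency. Main effects, which the study also compared, were fitted without the block or the other factor, since no model terms are given in the sources used here, and pairwise comparisons and the interaction in a fit of all 4 treatments, which share steers. CPM are counts scaled by edgeR's cpm function to TMM-adjusted library sizes, and log2 CPM use a prior count of 2. Ratios, correlations and neighbouring levels used permutation tests with 100000 resamples. The computations were tested on simulated data. Alternatives were DESeq2 (version 1.42.0), limma (version 3.58.1) on log2(FPKM + 1) and log2(FPKM + 0.1), other scalings, no filter, a gene length correction, the block, the other factor, tissue scores, and each steer left out.

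All 10 carriers are described. From the 4 pathway lists, genes that passed the main tests and the 3 with the highest mean FPKM are named, and from marker lists the leading genes. Some genes that this rule names are not reported here. PHGDH with casein was named after its values were seen. Genes most like a carrier were taken by residual correlation. The carriers and lists were chosen with earlier results of these data known.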

Additional observations from a re-analysis of the deposited data

How the results depend on the processing

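With GLP-2 against BSA, 3 carriers were called. The number was 1 with no filter on low counts, 1 with the replicate block, 1 with the other factor as a covariate, 5 with the DESeq2 test (SLC1A1 and SLC7A8 added), and 0 with the B cell follicle, epithelium or villus enterocyte score as a covariate, for which the cause was not tested. It ranged from 1 to 5 when each steer was left out, and was 5 without control replicate 2. The calls over all genes in the fits that left out a steer are not given here. SLC3A1 kept its call in 22 of 22 such fits and in 10 of 13 other alternatives, SLC7A9 in 8 and 4, and SLC36A1 in 5 and 7. SLC7A9 lost it (adjusted p up to 0.192) without casein replicates 1, 3, 4 or 5, casein + GLP-2 replicates 2, 3, 4 or 5, control replicates 1, 3, 4 or 5, or GLP-2 replicates 3 or 6. SLC36A1 lost it (adjusted p up to 0.098) without any casein replicate but 6, any casein + GLP-2 replicate, control replicates 1, 3 or 5, or GLP-2 replicates 1, 3 or 6. SLC1A1 gained it (adjusted p down to 0.019) without casein replicates 2 or 6, control replicate 2, or GLP-2 replicates 4 or 5. Over all genes, 715 rose and 1166 fell, against 2999 calls with DESeq2, 689 with the replicate block and 0 with any of the 3 scores. Residuals of steers of the same block correlated at 0.0328 on average over 30 pairs, against -0.00638 over 151 other pairs. The difference between these means was not tested, and the blocks are part of the design whatever their size. The replicate block changed no other call of a carrier. With GLP-2 against control, DESeq2 called 2 carriers, and leaving out a steer gave 0 to 2, with 2 without control replicate 2. The calls over all genes in these fits are not given here either.

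The directions that reversed belonged to values that passed no test. With GLP-2 against BSA, SLC43A2 was -0.0078 with the villus score. With casein against water, SLC1A1 was 0.011 and 0.041 with limma on log2(FPKM + 1) and log2(FPKM + 0.1), and -0.60 to 0.058 over left-out steers. With casein + GLP-2 against casein, SLC6A19 was 0.035 with the replicate block and 0.0097 with block and length correction, and SLC3A2 was -0.13 with the follicle score and -0.10 with the epithelium score. The villus score there gave SLC7A9 -0.47, SLC1A1 -0.32, SLC7A7 -0.35, SLC3A2 -0.43, SLC7A8 -0.28 and SLC43A2 -0.20, and left-out steers gave SLC6A19 -0.88 to 0.33, SLC7A9 -0.21 to 1.48, SLC3A2 -0.14 to 0.24 and SLC7A8 -0.52 to 0.56. With casein against control, SLC7A7 was -0.0051 with DESeq2 size factors, -0.019 with no filter, -0.0049 with DESeq2, -0.040 with the length correction, -0.032 with block and length correction, -0.24 with the follicle score, and -0.0042 and -0.0046 with limma. The follicle score there gave SLC3A1 -0.15 and SLC7A8 -0.19, and left-out steers gave SLC3A1 -0.082 to 0.44, SLC36A1 -0.16 to 0.81, SLC7A7 -0.20 to 0.18 and SLC7A8 -0.074 to 1.01. The interaction of SLC3A1 was -0.033 with upper quartile scaling, -0.20 with the replicate block, -0.185 with block and length correction, -0.11 with the epithelium score, -0.24 and -0.29 with limma, -0.38 with the villus score and -0.22 to 0.49 over left-out steers. That of SLC36A1 was -0.15 with the villus score and -0.14 to 0.80 over left-out steers, and that of SLC43A2 was -0.71 to 0.028. The log2 ratio of SLC7A9 to SLC3A1 with GLP-2 against BSA was -0.12 with a pseudocount of 1 and -0.061 to 0.67 over left-out steers. With casein against water, left-out steers gave 0.26 to 0.37 for SLC7A7 to SLC3A2, with an adjusted permutation p down to 0.0259, and -0.34 to 0.069 for SLC7A8 to SLC3A2.

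Of 2844 comparisons with the main setting, 2666 were labelled the same, 88 reversed, 70 lost calls and 20 gained calls. Some of them compare the number of called carriers, where a small change was labelled the same. Most concern values that passed no test in the main setting, so that the same label there means staying uncalled. How often the called carriers kept their calls is given by gene above. Depth limits SLC7A9 most, since its lowest value (casein replicate 6, 0.417 CPM) is 4 reads.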
